A study of Mus musculus with 9 samples.

Results

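The ERBB family is described here through 10 genes of a table of 49585: the receptor genes Egfr, Erbb2, Erbb3 and Erbb4, and the ligand genes Areg, Ereg, Hbegf, Tgfa, Btc and Nrg1. They were chosen by name, each symbol matched 1 identifier, and all 10 passed the filter on low counts that left 19606 genes. Spontaneous breast adenocarcinomas of mice were treated with adeno-associated virus (AAV) on days 0, 3 and 8 and taken when the animals met the euthanasia criteria. There were 6 AAV-∆mut-p53 tumours, in which the design says mutant p53 was deleted, and 3 AAV-Control tumours. Mice of both groups carried K14-Cre, which acts in keratin 14-positive epithelium, a Trp53 locus labelled Trp53wm-R172H/fl, and a Cre-dependent Cas9 allele, Rosa26LSL CAS9-P2A-EGFP, in 1 copy. R172H is a substitution in p53 that matches a human hotspot, and the label does not spell out wm. Tumour numbers below follow accession order and only name a tumour. Tumours 4 and 5 of the AAV-∆mut-p53 group have titles that share a number, and whether they came from 1 animal is not stated.

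ERBB receptors are tyrosine kinases of epithelial cells that pair with each other when an EGF-like ligand binds. EGFR binds amphiregulin, epiregulin, HB-EGF, TGF-alpha and betacellulin, ERBB3 and ERBB4 bind neuregulins, ERBB2 has no known ligand of its own, and ERBB3 has little kinase activity and signals through its partner. The ligands are made as membrane-bound precursors and are cut free by proteases. In the mammary gland the family drives duct growth and lobule formation, amphiregulin carries the oestrogen signal in duct growth, ERBB4 takes part in lactation, and ERBB2 is amplified in a class of human breast cancers.

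Promoters of 6 of the 10 genes were in the RefSeq table for GRCm38.p6. Of these, 4 are printed as pairs whose genes differed in the tumour that held the highest or lowest value. Areg and Btc lie close together on chromosome 5 but peaked in different tumours, and Egfr was lowest in the tumour where Erbb2 was highest. Each run holds the 250 bases before the transcription start, 5′ to 3′ on the gene's strand. Capitals mark matches, on either strand, to any of 4 motifs, and the matches shown do not overlap each other. The first was the cyclic AMP response element or CRE, spelled TGACGTCA, to which CREB proteins bind. The next was the GC box of the SP1 family of zinc finger proteins, searched for as GGGCGG. Core promoters of many regulated genes hold a TATA box close to their start, and the letters looked for were TATAAA. The last was the AP-1 site of FOS and JUN dimers, looked for as TGANTCA, where N is any base.
Areg, chr5:91139349-91139598, plus strand: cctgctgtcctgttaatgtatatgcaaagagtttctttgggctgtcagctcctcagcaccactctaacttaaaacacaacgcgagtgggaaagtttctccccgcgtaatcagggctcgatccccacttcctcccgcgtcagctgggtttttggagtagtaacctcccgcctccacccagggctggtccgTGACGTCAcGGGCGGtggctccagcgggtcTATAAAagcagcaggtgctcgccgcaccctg
Btc, chr5:91402995-91403244, minus strand: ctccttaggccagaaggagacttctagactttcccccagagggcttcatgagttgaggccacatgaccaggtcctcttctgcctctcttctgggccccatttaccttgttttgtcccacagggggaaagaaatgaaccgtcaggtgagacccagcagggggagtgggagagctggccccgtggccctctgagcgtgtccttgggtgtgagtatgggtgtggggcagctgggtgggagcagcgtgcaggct
Erbb2, chr11:98412234-98412483, plus strand: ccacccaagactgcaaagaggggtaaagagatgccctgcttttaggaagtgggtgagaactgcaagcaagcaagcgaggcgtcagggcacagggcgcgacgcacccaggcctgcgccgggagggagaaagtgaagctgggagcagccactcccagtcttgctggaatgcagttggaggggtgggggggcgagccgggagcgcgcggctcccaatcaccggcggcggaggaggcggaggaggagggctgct
Egfr, chr11:16751953-16752202, plus strand: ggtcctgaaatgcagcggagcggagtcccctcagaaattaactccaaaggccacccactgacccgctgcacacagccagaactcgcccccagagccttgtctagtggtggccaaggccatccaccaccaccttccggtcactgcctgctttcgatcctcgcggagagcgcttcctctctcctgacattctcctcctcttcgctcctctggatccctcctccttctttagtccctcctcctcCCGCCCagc

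The Areg window held 1 CRE, 1 GC box and 1 TATA box, the Egfr window held 1 GC box, and the Btc and Erbb2 windows held no match to the 4 motifs. Among the 32851 windows of the same length in the table, 1.5% held the CRE, 32.7% the GC box, 12.4% the TATA box and 6.7% the AP-1 site. A match is a run of letters, not a measured binding site. For Erbb2 the RefSeq start lay 14 bases from the GENCODE start, and for the other three the starts were the same.

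Levels are in CPM, counts divided by the library total and scaled by TMM, which adjusts each library for its composition. Deposited totals ran from 18581545 to 24567423 counts in AAV-∆mut-p53 tumours and from 26280250 to 30953250 in AAV-Control tumours, so the groups differed in depth as well as in vector. Trp53 held 13.1 and 22.0 CPM in AAV-∆mut-p53 1 and 2 and 37.8 to 41.5 CPM in numbers 3 to 6, against 39.3 to 48.6 CPM in AAV-Control tumours, and gene counts do not tell an edited transcript from an intact one. AAV-∆mut-p53 2 stood apart from the rest. Its 12 skeletal muscle markers summed to 41270 CPM, against 38.8 to 409 CPM in the other 8 tumours, and its Epcam, an epithelial adhesion gene, held 32.4 CPM, against 488 to 1004 CPM in the others. Its 8 fibroblast markers summed to 16760 CPM and its 8 macrophage markers to 4016 CPM, while its 12 luminal markers summed to 480 CPM and its 8 basal markers to 233 CPM, the lowest luminal and basal sums of the 9 tumours. All 12 luminal and 8 basal markers were detected in every tumour. Among the other lists, 8 neutrophil markers summed to 47.5 to 216 CPM in AAV-∆mut-p53 tumours, against 6.50 to 62.9 CPM in AAV-Control tumours, and 6 endothelial markers to 124.5 to 336 CPM, against 245 to 507 CPM in AAV-Control tumours. Sums of 9 mast cell and T cell markers overlapped, at 122 to 645 CPM in AAV-∆mut-p53 tumours and 240.0 to 493 CPM in AAV-Control tumours. Kit led this sum, which was lowest in AAV-∆mut-p53 2, the tumour with the lowest Epcam. Whether the sum stands for mast cells and T cells was not tested. Markers at 0 in at least 1 tumour were Ckm and Tnnc2 of muscle, Lep of adipocytes, Foxd3 of Schwann cells, Retnlg and Ly6g of neutrophils, Cma1 and Cd3e of mast and T cells, and 6 of 9 markers of keratinized epithelium. The part of these cell types in the group differences of the ERBB genes was not tested. In RNA from whole tumours, fewer cells of a type and less RNA per cell cannot be told apart.

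The question was which ERBB genes differed between tumours with and without deletion of mutant p53. Of the 10 genes, 4 had a higher fitted level in AAV-∆mut-p53 tumours (Egfr, Erbb2, Erbb3 and Btc) and 6 a lower one (Erbb4, Areg, Ereg, Hbegf, Tgfa and Nrg1). None passed a false discovery rate (FDR) of 0.05 in edgeR's quasi-likelihood test, where 0% of the 19606 genes did. The 1 gene with an unadjusted p under 0.05 was Erbb4, and 7.07% of all genes had such a p, 3.26% in the lower direction. DESeq2 called no member either, against 0.53% of all genes. No member had groups that did not overlap, against 3.06% of all genes (1.47% higher and 1.59% lower in AAV-∆mut-p53 tumours). The median log2 fold change of the 10 was -0.30, and that of all tested genes was 0.09.

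**Figure D1:**
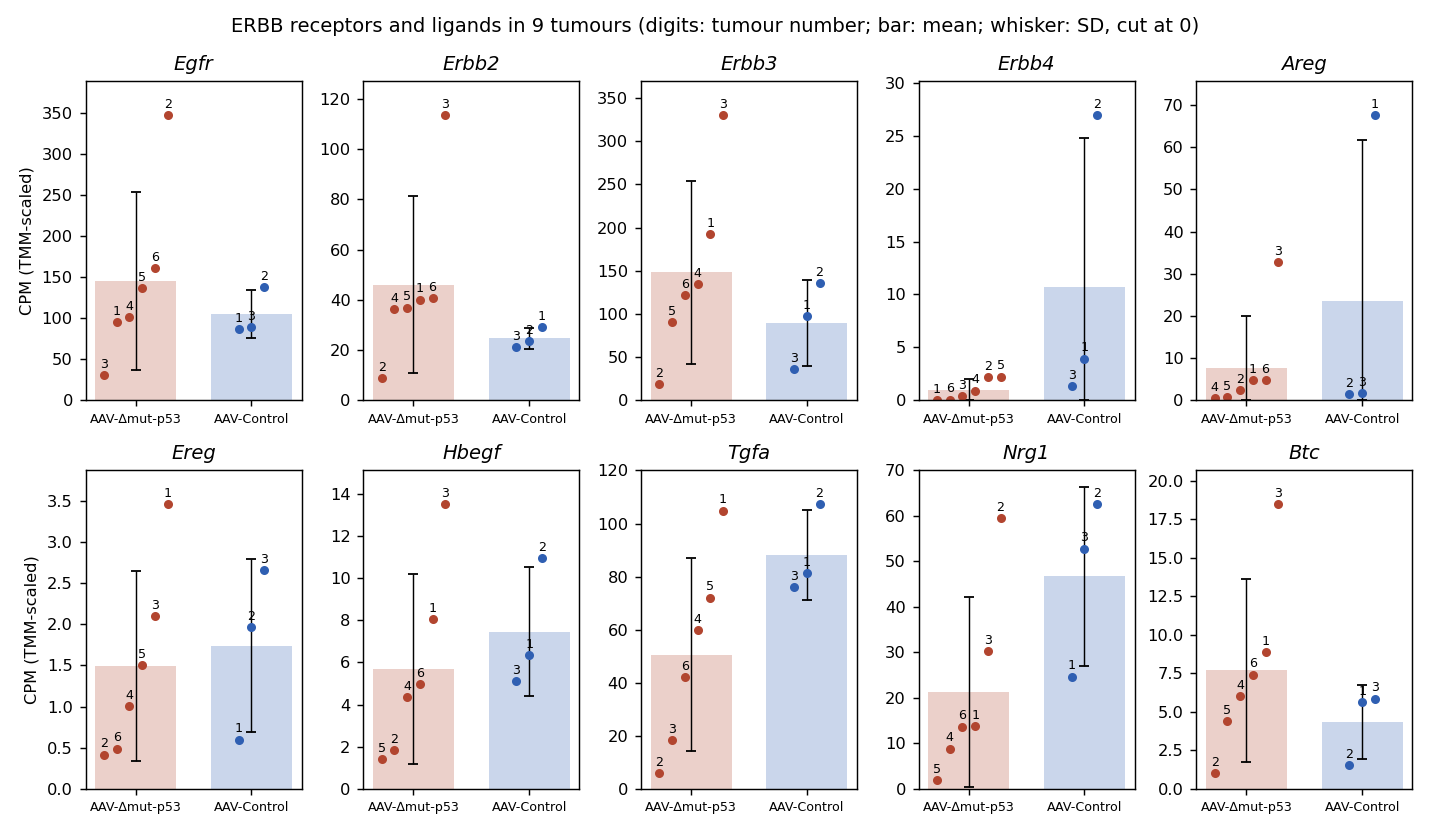
CPM of each ERBB receptor and ligand gene in the 6 AAV-∆mut-p53 and 3 AAV-Control tumours. Points are tumours with their numbers, bars are means and whiskers are SD cut at 0; single tumours carry the highest values of Egfr (number 2, 348 CPM), Erbb2 (number 3, 114 CPM), Areg (control 1, 67.6 CPM) and Erbb4 (control 2, 26.9 CPM).

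Egfr, on chromosome 11 from 16752203 to 16918158 (plus strand, GRCm38), encodes the founding member of the family. It ran from 30.6 CPM in AAV-∆mut-p53 3 to 348 CPM in AAV-∆mut-p53 2 with a median of 119 CPM, against 86.4, 138 and 89.2 CPM in AAV-Control 1, 2 and 3. The AAV-∆mut-p53 group thus held both the highest and the lowest value, and 3 of its 6 tumours lay within the control range. AAV-∆mut-p53 tumours averaged 145.5 ± 109 CPM (SD, n = 6), against 105 ± 29.2 CPM in AAV-Control tumours (SD, n = 3). Between groups the log2 fold change was 0.48 (SE 0.59; FDR = 0.85 by edgeR), and it was 0.0099 without AAV-∆mut-p53 2. In that tumour the muscle, fibroblast and macrophage markers were high beside Egfr and their part in its level was not tested.

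Erbb2, on chromosome 11 from 98412470 to 98437716, encodes the partner kinase. It ran from 8.69 CPM in AAV-∆mut-p53 2 to 114 CPM in AAV-∆mut-p53 3 with a median of 38.5 CPM, against 29.1, 23.5 and 21.2 CPM in AAV-Control 1, 2 and 3. Of the 6 AAV-∆mut-p53 tumours, 5 lay above every control, 4 of them between 36.3 and 40.6 CPM, and number 2, poor in epithelial RNA, lay below every control. AAV-∆mut-p53 tumours averaged 46.0 ± 35.2 CPM (n = 6, SD), against 24.6 ± 4.06 CPM in AAV-Control tumours (n = 3, SD). The fitted log2 fold change was 0.90 (SE 0.61; FDR = 0.71 by edgeR). Without AAV-∆mut-p53 2 it was 1.13 (unadjusted p = 0.0295 and FDR = 0.55 by edgeR), where 8.79% of all genes had an unadjusted p under 0.05. The groups then did not overlap, as for 2.55% of all genes in this direction. Without AAV-∆mut-p53 3 it was 0.40.

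Erbb3, on chromosome 10 from 128567523 to 128589652, encodes the neuregulin receptor that signals through its partner. It ran from 18.9 CPM in AAV-∆mut-p53 2 to 330.3 CPM in AAV-∆mut-p53 3 with a median of 128 CPM, against 97.2, 135 and 35.5 CPM in AAV-Control 1, 2 and 3. The lowest and highest tumours were those of Erbb2, and the groups overlapped. Its log2 fold change was 0.73 (SE 0.71; FDR = 0.80 by edgeR), 0.32 without AAV-∆mut-p53 3 and 1.16 without AAV-Control 2.

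Erbb4, on chromosome 1 from 68032186 to 69108059, encodes the other neuregulin receptor. Raw counts in AAV-∆mut-p53 1 to 6 were 0, 47, 8, 16, 50 and 1, or at most 2.21 CPM, and the 0 allows up to 0.135 CPM by counting error alone. AAV-Control 1, 2 and 3 held 112, 808 and 33 reads, or 3.94, 26.9 and 1.31 CPM. Erbb4 was thus low in every AAV-∆mut-p53 tumour, where 4 of 6 lay below every control, but numbers 2 and 5 lay above AAV-Control 3. Erbb4 had a log2 fold change of -3.49 (95% interval from -6.30 to -0.68; unadjusted p = 0.0196 and FDR = 0.68 by edgeR). It was -1.45 without AAV-Control 2, where no member had an unadjusted p under 0.05, against 4.24% of all genes. On log2(CPM + 1), exact permutation of the group labels (2-sided) gave p = 0.0714, where the smallest p that 84 assignments allow is 0.0119. In AAV-Control 2 the 8 Schwann cell markers also had their highest sum, 890 CPM against 173 to 407 CPM in the other tumours, with Sox10 at 665 CPM of it. Elsewhere the Schwann sum and Erbb4 did not keep 1 order. AAV-∆mut-p53 1 had the next sum (407 CPM, 323 CPM of it Sox10) and no Erbb4 read. AAV-Control 1 had the lowest sum (173 CPM, 106 CPM of it Sox10) and 3.94 CPM of Erbb4. Sox10 held most of the sum in every tumour but AAV-∆mut-p53 2 (25.5 of 277 CPM), where Epcam was lowest too (32.4 CPM). The sum and its order over tumours are therefore largely those of 1 gene and cannot stand for Schwann cells as a type. The part of Schwann cells in the level of Erbb4 was not tested.

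Among the EGFR ligands, Tgfa had the highest median level per kb of exon and Areg the widest spread between tumours. Tgfa, on chromosome 6 from 86195223 to 86275719, encodes TGF-alpha. It ran from 5.87 CPM in AAV-∆mut-p53 2 to 105 CPM in AAV-∆mut-p53 1 with a median of 50.9 CPM, against 81.3, 107 and 75.9 CPM in AAV-Control 1, 2 and 3. Of the 6 AAV-∆mut-p53 tumours, 5 lay below every control, and number 1 lay within the control range. Its fold change on the log2 scale was -0.80 (SE 0.66; FDR = 0.76 by edgeR), and the exact 2-sided permutation test gave p = 0.119. It was -0.56 without AAV-∆mut-p53 2 and -1.14 without AAV-∆mut-p53 1.

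Areg, which encodes amphiregulin, lies on chromosome 5 from 91139599 to 91148432. AAV-∆mut-p53 tumours ran from 0.502 CPM in number 4 to 32.7 CPM in number 3 with a median of 3.54 CPM, against 67.6, 1.37 and 1.70 CPM in AAV-Control 1, 2 and 3. Each group therefore had 1 tumour far above its others: outside AAV-∆mut-p53 3 and AAV-Control 1 it reached at most 4.73 CPM. Areg had a log2 fold change of -1.63 (SE 1.38; FDR = 0.77 by edgeR). Its sign rested on AAV-Control 1, without which the value was 2.30, and without AAV-∆mut-p53 3 it was -3.17 (unadjusted p = 0.0292 and FDR = 0.73 by edgeR), where 6.36% of all genes had an unadjusted p under 0.05. The spread of its log2(CPM + 1) over the 9 tumours was an SD of 1.92, above that of 98.4% of the 16443 genes that averaged 1 CPM or more.

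Btc and Ereg flank Areg on chromosome 5, and neither was high in AAV-Control 1, where Areg peaked. Btc, which encodes betacellulin, from 91357261 to 91402994, ran from 1.02 CPM in AAV-∆mut-p53 2 to 18.5 CPM in AAV-∆mut-p53 3 with a median of 6.72 CPM, against 5.62, 1.53 and 5.86 CPM in AAV-Control 1, 2 and 3. Its log2 fold change was 0.83 (SE 0.78; FDR = 0.80 by edgeR). Ereg, which encodes epiregulin, from 91074622 to 91093646, stayed between 0.416 and 3.46 CPM in AAV-∆mut-p53 tumours, against 0.597 to 2.65 CPM in AAV-Control tumours. AAV-Control 1 held the lowest control value of Ereg, 0.597 CPM. Its log2 fold change of -0.22 (SE 0.74; FDR = 0.95 by edgeR) turned to 0.22 without AAV-Control 3 and to 0.42 in limma voom.

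Hbegf, on chromosome 18 from 36504927 to 36515805, encodes HB-EGF. It ran from 1.42 CPM in AAV-∆mut-p53 5 to 13.5 CPM in AAV-∆mut-p53 3 with a median of 4.66 CPM, against 6.36, 10.9 and 5.11 CPM in AAV-Control 1, 2 and 3. Of the 6 AAV-∆mut-p53 tumours, 4 lay below every control and 1 above. Hbegf had a log2 fold change of -0.39 (SE 0.68; FDR = 0.90 by edgeR) and -0.0046 without AAV-Control 2.

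Nrg1, on chromosome 8 from 31814551 to 32884029, encodes neuregulin 1, a ligand of ERBB3 and ERBB4. It ran from 1.86 CPM in AAV-∆mut-p53 5 to 59.5 CPM in AAV-∆mut-p53 2 with a median of 13.8 CPM, against 24.6, 62.6 and 52.8 CPM in AAV-Control 1, 2 and 3. Of the 6 AAV-∆mut-p53 tumours, 4 lay below every control, and numbers 2 and 3 lay within the control range. For Nrg1 the log2 fold change was -1.13 (SE 0.78; FDR = 0.72 by edgeR). Without AAV-∆mut-p53 2, the tumour rich in muscle and fibroblast RNA, it was -1.76 (unadjusted p = 0.0241 and FDR = 0.54 by edgeR). In that fit 8.79% of all genes had an unadjusted p under 0.05. On all 9 tumours it was -1.73 (unadjusted p = 0.0256 and FDR = 0.42 by limma voom with quality weights), where 2038 of 19606 genes had such a p. Across tumours Nrg1 and the summed fibroblast markers did not keep 1 order. AAV-∆mut-p53 2 and AAV-Control 2 had the highest fibroblast sums (16760 and 7308 CPM) and the highest Nrg1 of their groups. AAV-∆mut-p53 5 had the next sum (3180 CPM) and the lowest Nrg1, and AAV-Control 3 had the lowest sum (797 CPM) with 52.8 CPM of Nrg1. The part of fibroblasts in the level of Nrg1 was not tested.

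**Figure D2:**
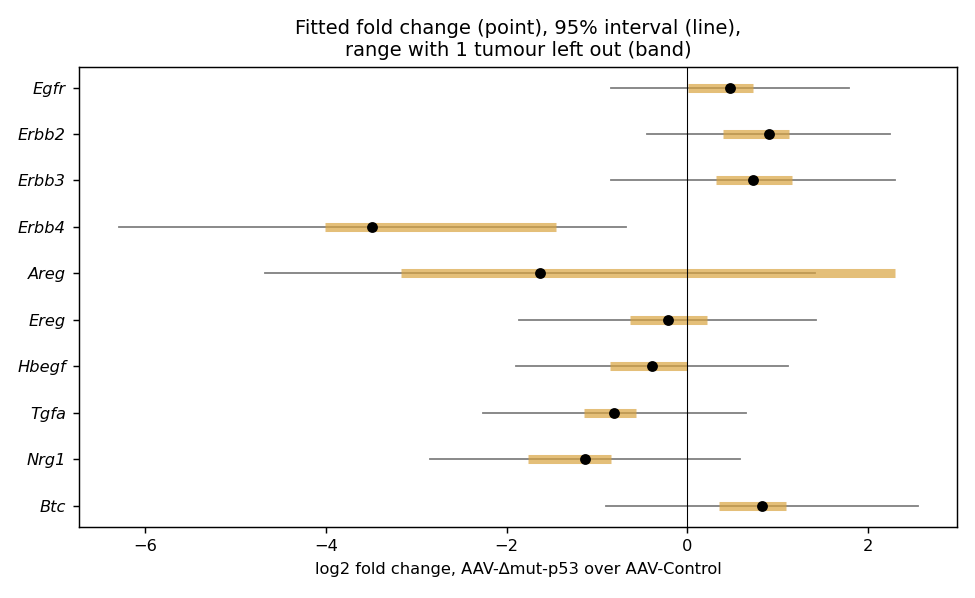
Log2 fold change of each gene, AAV-∆mut-p53 over AAV-Control, from edgeR (points), with its 95% interval (lines) and the range when 1 of the 9 tumours is left out (bands). The interval of Erbb4 alone leaves out 0, and the band of Areg runs from -3.17 to 2.30.

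To set genes beside each other, CPM were divided by exon length in kb. Erbb3 had the highest median over the 9 tumours, at 20.2 CPM per kb, followed by Tgfa at 11.1, Egfr at 8.94, Erbb2 at 6.97, Nrg1 at 2.38, Areg at 1.98, Btc at 1.30, Hbegf at 1.06, Ereg at 0.364 and Erbb4 at 0.106 CPM per kb. Ranges over tumours overlapped between all neighbours in this order. Erbb3 lay above Tgfa in 8 of 9 tumours and Egfr above Erbb2 in 8 of 9, while Nrg1 lay above Areg in only 4 of 9. With the longest transcript as length, Btc and Hbegf changed places.

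The make-up of the receptor pool differed between tumours. Erbb3 made up the largest share of summed receptor CPM per kb in 7 of 9 tumours and Egfr in AAV-∆mut-p53 2 and AAV-Control 3. The share of Egfr was 86.0% in AAV-∆mut-p53 2 and 3.4% in AAV-∆mut-p53 3, with 17.5% to 35.0% in the other AAV-∆mut-p53 tumours, against 25.7%, 29.5% and 43.9% in AAV-Control 1, 2 and 3. Erbb2 made up 4.7% to 27.4% in AAV-∆mut-p53 tumours, against 10.9% to 22.7% in AAV-Control tumours. Erbb4 reached 5.3% in AAV-Control 2 and at most 1.1% elsewhere.

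The ligand pool was uneven too. Tgfa led the 6 ligands in 6 of 9 tumours, with 82.3% of summed ligand CPM per kb in AAV-∆mut-p53 5. Areg led in AAV-∆mut-p53 3 (67.1%) and AAV-Control 1 (76.0%), and Nrg1 led in AAV-∆mut-p53 2 (61.6%). Nrg1 made up 1.3% to 9.1% in the other 5 AAV-∆mut-p53 tumours, against 3.2%, 22.6% and 24.1% in AAV-Control 1, 2 and 3, so the groups overlapped. The leading receptor and ligand of all 9 tumours were the same with the longest transcript as length.

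**Figure D3:**
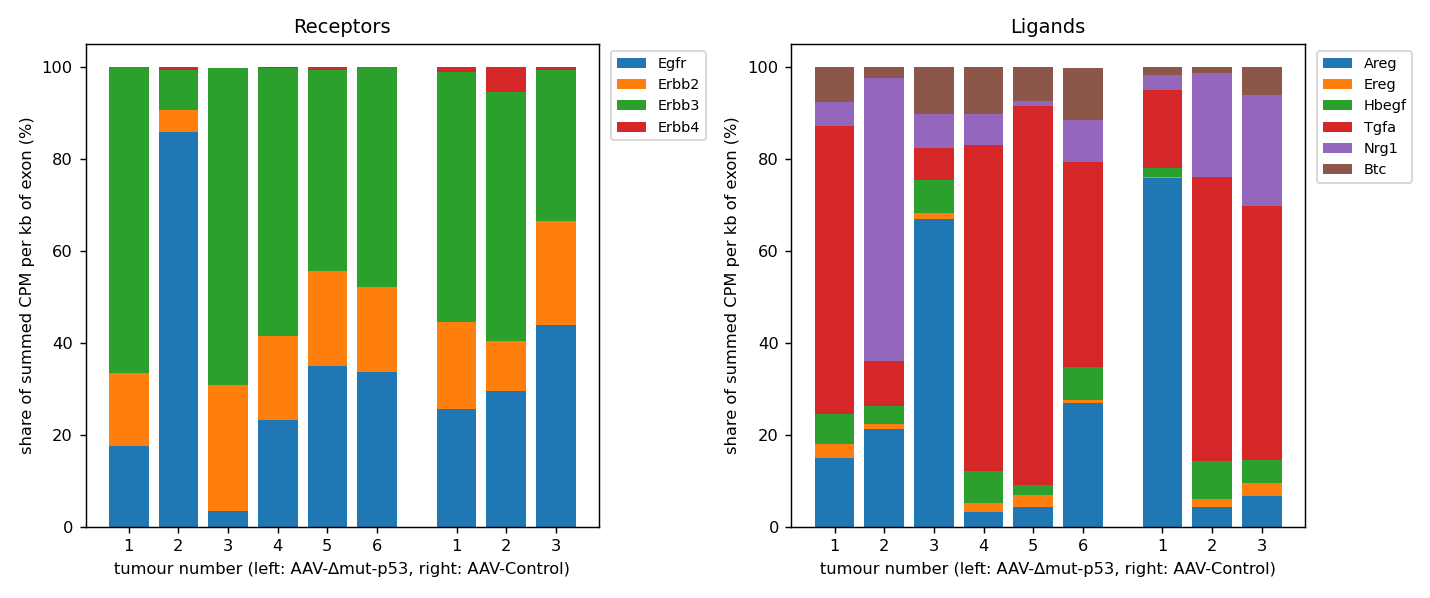
Share of each receptor (left panel) and ligand (right panel) in the summed CPM per kb of exon in each tumour, AAV-∆mut-p53 tumours left of AAV-Control tumours. Egfr fills 86.0% of the receptor bar of AAV-∆mut-p53 2 and 3.4% of that of AAV-∆mut-p53 3, and Areg leads the ligand bars of AAV-∆mut-p53 3 and AAV-Control 1.

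A pair of tumours held most of the extremes. AAV-∆mut-p53 3 had the highest Erbb2, Erbb3, Hbegf and Btc of the 9 tumours and the lowest Egfr. AAV-∆mut-p53 2 had the lowest Erbb2, Erbb3, Ereg, Tgfa and Btc and the highest Egfr. AAV-Control 2 had the highest Erbb4, Tgfa and Nrg1. The SD of log2(CPM + 1) of all members but Ereg exceeded that of at least 74.7% of the 16443 genes, and without AAV-∆mut-p53 2 that of at least 73.1%.

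Genes next to Erbb2 were also high in AAV-∆mut-p53 3, where Erbb2 was 3.47 times the median of the other 8 tumours. Of 17 listed neighbours along the same stretch of chromosome 11, 13 had a mean of at least 1 CPM, and 8 of these were at least 2-fold higher in that tumour, against 11% of all such genes. Cdk12, a transcription kinase, held 247 CPM in AAV-∆mut-p53 3 and 92.9 to 174 CPM in the other 8 tumours. Stard3, a cholesterol-binding protein gene, held 70.6 CPM there and 17.2 to 41.9 CPM in the others, and Grb7, an adaptor that binds ERBB receptors, held 25.5 CPM there and 2.50 to 19.4 CPM in the others. Other neighbours were not raised as far: the ratio was 1.24 for Mien1, the next gene after Erbb2, 1.14 for Nr1d1, 0.935 for Thra and 0.42 for Ikzf3. Ppp1r1b, 1 of the 8, had a ratio of 3.44, but it held 6.50 CPM in AAV-∆mut-p53 3 and 6.74 CPM in AAV-∆mut-p53 1. Tcap, a muscle gene also counted in the 8, had the highest ratio of these 13 (4.76). It held 1.22 CPM in AAV-∆mut-p53 3, however, and reached a mean of 1 CPM only through 121 CPM in AAV-∆mut-p53 2. These are values of 1 tumour, with no replicate and no test, and RNA counts do not measure gene copies. Between groups, Stard3 alone of the listed neighbours did not overlap. It held 28.2 to 70.6 CPM in AAV-∆mut-p53 tumours, against 17.2 to 26.1 CPM in AAV-Control tumours. In this direction 1.47% of all genes did not overlap, and the log2 fold change of Stard3 was 0.78 (SE 0.37, FDR = 0.68 by edgeR).

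**Figure D4:**
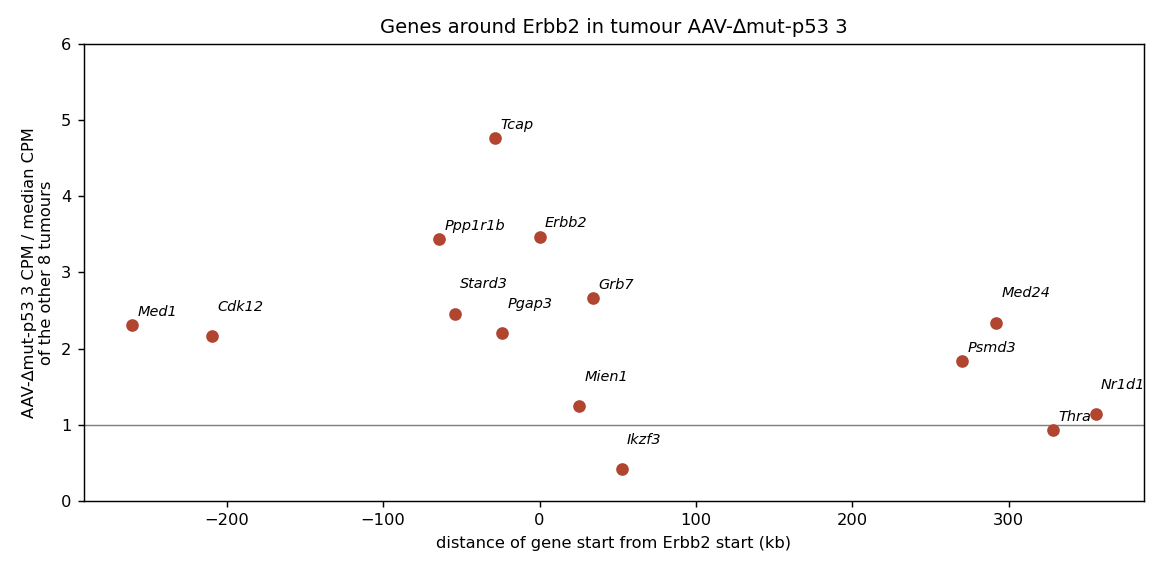
CPM in AAV-∆mut-p53 3 over the median CPM of the other 8 tumours for Erbb2 and its 13 neighbours with a mean of at least 1 CPM, by distance of each gene's leftmost coordinate from that of Erbb2 in kb. Erbb2 sits at 3.47, every plotted gene on its left lies above 2, and on its right Grb7 and Med24 lie above 2 and Mien1, Ikzf3, Psmd3, Thra and Nr1d1 below it.

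The other genes of the pathway came from lists picked with earlier results of these data known. None of their tested genes passed the FDR threshold in edgeR's quasi-likelihood test in either direction. Among 6 genes for ligand shedding, 4 had a higher and 2 a lower fitted level in AAV-∆mut-p53 tumours (median log2 fold change 0.44), and the pair of inactive rhomboids that escort the protease ADAM17 had an unadjusted p under 0.05, against 3.82% of all genes in this direction. Of all 19606 genes, 10902 had a higher and 8704 a lower fitted level. Rhbdf2 held 13.3 to 41.5 CPM in AAV-∆mut-p53 tumours with a median of 31.0 CPM, against 15.9, 16.8 and 10.9 CPM in AAV-Control 1, 2 and 3. All AAV-∆mut-p53 tumours but number 2 lay above every control. Its log2 fold change was 1.07 (SE 0.40; unadjusted p = 0.0222 and FDR = 0.68 by edgeR). DESeq2 on all 9 tumours did not call it (FDR = 0.26), and DESeq2 without AAV-∆mut-p53 2, an alternative added after the data had been seen, did (FDR = 0.0317), as it did 1.36% of all genes. Rhbdf1 held 40.0 to 99.5 CPM in AAV-∆mut-p53 tumours, against 27.8 to 49.5 CPM in AAV-Control tumours, a log2 fold change of 0.77 (SE 0.33; FDR = 0.68 by edgeR), while Adam17 itself had 0.71 (SE 0.40; FDR = 0.69 by edgeR).

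Of 22 adaptors and signalling kinases, 12 had a higher and 10 a lower fitted level (median 0.01). Gab1, a docking protein for PI3 kinase, held 56.4 to 158 CPM in AAV-∆mut-p53 tumours against 44.3 to 59.6 CPM in AAV-Control tumours (log2 fold change 0.88, SE 0.35; FDR = 0.68 by edgeR). Hras, a small GTPase, held 27.4 to 108 CPM in AAV-∆mut-p53 tumours, against 78.0 to 176 CPM in AAV-Control tumours (log2 fold change -1.03, SE 0.45; FDR = 0.68 by edgeR). Of 18 genes that restrain ERBB or ERK signalling, 10 had a higher and 8 a lower fitted level, and Spry4 had the smallest p (log2 fold change -0.89, FDR = 0.68 by edgeR). Among 10 ERK-responsive genes, 7 had a higher and 3 a lower fitted level (median 0.37). Plaur, the urokinase receptor gene, had the smallest p there, at 4.07 to 23.1 CPM in AAV-∆mut-p53 tumours, against 4.83 to 8.84 CPM in AAV-Control tumours. Of 5 further ligand genes 4 were tested, 2 with a higher and 2 with a lower level, and Epgn, which encodes epigen, reached 2.65 CPM in AAV-∆mut-p53 6 and at most 0.944 CPM elsewhere. Of the 17 neighbours of Erbb2, 13 were tested, 12 with a higher and 1 with a lower level; the smallest p was that of Tcap, whose log2 fold change was 6.33, and 1.08 without AAV-∆mut-p53 2.

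The genes whose log2(CPM + 1) most resembled each member were sought among 13830 other genes with usual symbols and a mean of at least 1 CPM. These are descriptions over 9 tumours, whose genes share library, depth and tissue make-up, and no p is given. Closest to Egfr was Aldh1l2 (Pearson r = 0.985, Spearman rho = 0.933), then Tceanc2 and Sept8. Erbb2 was closest to Sirt6 (r = 0.968, rho = 0.967), then Tnk1 and Pigg, and Erbb3 to Lmtk2 (r = 0.964, rho = 0.883), then Agfg2 and Psmc3. Erbb4 was closest to Kctd8 (r = 0.984, rho = 0.967) and next to Sult5a1 and Kcnd2, of which Kctd8 and Kcnd2 were at 0 in at least 1 tumour. Areg was closest to Agps (r = 0.941, rho = 0.65), then Tspan1 and Tmprss4, and Btc to Spint1 (r = 0.975, rho = 0.933), then Nradd and Rrp15. Tgfa was closest to Ajuba (r = 0.96, rho = 0.8), then Rnf5 and Stmn1, and Hbegf to Igf1r (r = 0.929, rho = 0.9), then Slc30a4 and Slc6a14. Ereg was closest to Fbxo9 (r = 0.927, rho = 0.933), then Ncald and Rif1, and Nrg1 to Rp2 (r = 0.892, rho = 0.917), then Csf2ra and Rab9. With 1 tumour left out at a time, the r of each closest gene stayed between 0.84 and 0.992. Each was picked as the highest r among the 13830 genes over these same 9 tumours. A high r was therefore built into the choice, and leaving out 1 tumour does not test the likeness.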

How the data were processed

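Total RNA of 9 flash-frozen tumours was made into stranded libraries and sequenced, per the labels' protocols. The authors deposited 1 table of raw counts per Ensembl gene, whole numbers with no normalization. The submitters' processing notes name STAR 2.6.0b, DESeq2 and GRCm38, without role or order; for the counting program, strand setting and annotation release, none is given in the sources used here. All columns matched a sample by title. Symbols, positions and exon lengths came from GENCODE mouse release 21 on GRCm38 (49326 identifiers matched without version, 43749 with it, 259 unmatched).

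Genes kept by filterByExpr (minimum count 10) entered a fit in edgeR 4.0.16 under R 4.3.3 (TMM scaling, quasi-likelihood, 2-sided, no covariate, Benjamini-Hochberg over 19606 genes, FDR 0.05), checked on simulated counts. SE and intervals derive from that fit. Single members were also tested by exact permutation of log2(CPM + 1). Alternatives used DESeq2 1.42.0 and limma 3.58.1 among others. Nothing shows whether tumours came from separate animals, so p-values measure the spread between these tumours. The members and lists were chosen with earlier results of these data known. Named genes are the 10 members, list genes with an unadjusted p under 0.05 (or the smallest p), and the 3 closest genes to each member; Adam17, Cdk12, Stard3 and the other single neighbours of Erbb2 were added after their values were seen. Marker lists are given by summed CPM, and Trp63 and Krt14 were named from them after their values were seen. Depth sets a counting limit of 3 reads for a gene at 0.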

Additional observations from a re-analysis of the deposited data

Results flagged for a closer look

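Of 29 quantities examined in the 6 AAV-∆mut-p53 tumours, 8 had 1 tumour set far apart from the other 5. The rule flags about 1 in 20 groups of independent, normally distributed values. CPM need not be normally distributed and the quantities share the same tumours, so the count of 8 cannot be set against chance. Erbb2 in AAV-∆mut-p53 3 was 114 CPM, and its gap to the next tumour was 0.696 of the whole range. Areg in the same tumour was 32.7 CPM, with a gap of 0.869 of the range. Epgn in AAV-∆mut-p53 6 was 2.65 CPM. The remaining 5 were all in AAV-∆mut-p53 2: Tcap at 121 CPM, and the summed markers of skeletal muscle at 41270 CPM, fibroblasts at 16760 CPM, adipocytes at 553 CPM and macrophages at 4016 CPM.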

How the results depend on the processing

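Each member was refitted under 19 alternatives, and 8 of the 10 members kept the sign of their log2 fold change in all of them. The exceptions were Areg, which ran from -3.17 without AAV-∆mut-p53 3 to 2.30 without AAV-Control 1, and Ereg. Ereg ran from -0.64 without AAV-∆mut-p53 1 to 0.22 without AAV-Control 3 and was 0.42 in limma voom with quality weights. The cause was not tested. Among the 8 that kept their sign, Egfr fell to 0.0099 without AAV-∆mut-p53 2 and Hbegf to -0.0046 without AAV-Control 2. A kept sign was therefore not always a kept difference. No member passed the FDR threshold under any alternative, and the smallest FDR of a member was 0.0767, for Erbb4 by DESeq2 without AAV-∆mut-p53 2, an alternative added after the data had been seen. DESeq2 gave Areg no p. Over all genes edgeR called 0 (1387 at an unadjusted p under 0.05), DESeq2 called 104, or 0.53%, and DESeq2 without AAV-∆mut-p53 2 called 261. The median log2 fold change over all genes ran from -0.02 in limma voom to 0.20 with no filter, against 0.09. No paired analysis was possible because the labels give no replicate numbers that the groups share. Counting error is widest for Erbb4, with 0 and 1 reads in AAV-∆mut-p53 1 and 6.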

Other observations

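AAV-∆mut-p53 4 and 5, whose titles share a number, were close in some members and apart in others. Erbb2 held 36.3 and 36.9 CPM in them, Areg 0.502 and 0.708 CPM, and Tgfa 59.7 and 72.1 CPM. Nrg1, the neuregulin gene, held 8.82 and 1.86 CPM, and Hbegf 4.35 and 1.42 CPM. Adipocyte markers summed to 17.7 to 553 CPM in AAV-∆mut-p53 tumours, against 72.5 to 153 CPM in AAV-Control tumours, and keratinized epithelium markers to 5.67 to 23.0 CPM, against 4.14 to 22.9 CPM.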
